A study of Schizosaccharomyces pombe with 16 samples.

Results

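This account follows 79 of 2540 transcription units of fission yeast, *Schizosaccharomyces pombe*. Against the control and relative to all units, their RNA was high in *rrp6Δ* and under a set limit in *red1Δ*, *pab2Δ* and *mtl1-17*. A unit is a run of at least 6 neighbouring probes of one strand whose control signal, as a running median of 5 probes, was about 7.9 or more on the log2 scale. The value R of a unit is its mean log2 ratio of mutant over control, with the mean of all units of an array set to 0, averaged over the arrays of a mutant. The 79 members were chosen by R, which was 0.7 or more in *rrp6Δ* and under 0.3 in the other 3 mutants. Before the mean was set to 0, it was -0.24 in *rrp6Δ*, -0.01 in *red1Δ*, 0.05 in *pab2Δ* and -0.07 in *mtl1-17*. R is thus relative to the other units of an array. Another 214 units were as high in *rrp6Δ* but reached 0.3 in at least 1 of *red1Δ*, *pab2Δ* and *mtl1-17*, among them 94 that reached it in all 3.

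The nuclear exosome degrades RNA from its 3′ end, and Rrp6 is the exonuclease found only in its nuclear form. Adaptor complexes deliver RNAs to it. MTREC is built on the helicase Mtl1 and the zinc-finger protein Red1, and carries the nuclear poly(A)-binding protein Pab2 with Rmn1, and Iss10 with Mmi1, which binds meiotic mRNAs. The TRAMP complex holds the poly(A) polymerase Cid14, and Sen1 is an RNA and DNA helicase known from transcription termination. The members are thus units whose RNA stood high without the nuclease and did not reach the set level in cells without Red1 or Pab2 or with the temperature-sensitive Mtl1.

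RNA was taken from *rrp6Δ*, *red1Δ*, *pab2Δ*, *cid14Δ*, *iss10Δ*, *rmn1Δ*, *sen1Δ* and *mmi1Δ mei4-P572* cells grown in YEA medium at 30 °C, and from the temperature-sensitive *mtl1-17* strain grown at 23 °C and kept at 37 °C for 4 h. Each mutant had 2 arrays except *rmn1Δ* and *mmi1Δ mei4-P572*, which had 1 each. The controls were the wild-type strain p20 for *rrp6Δ*, p918 for *red1Δ*, *cid14Δ*, *iss10Δ* and *rmn1Δ*, p345 for *pab2Δ* and p344 for *sen1Δ*. For *mtl1-17* the control was a strain with Flag-tagged *mtl1*, and the paper's strain list gives *mtl1-17* with a Flag tag too. For *mmi1Δ mei4-P572* the control was *mei4-P572*, so both sides carried the *mei4* allele. No other mutant shared the control of *rrp6Δ*, *pab2Δ*, *sen1Δ*, *mtl1-17* or *mmi1Δ mei4-P572*. For these an effect of the control strain cannot be told apart from an effect of the mutant. The RNA was depleted of ribosomal RNA, and on all 16 arrays the mutant carried the dye Cy5 and its control Cy3. A dye effect on a probe therefore cannot be told apart from an effect of a mutant, except in a difference between mutants. The methods describe the repeated arrays as biological replicates, and *rmn1Δ* and *mmi1Δ mei4-P572* as having none.

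The share of probes well above background on an array was 49.95% to 84.51% for the mutant and 49.05% to 77.43% for the control. No file gives the gene of a probe, so a unit is called by its first and last probe number. Probe numbers were placed against the gene order of chromosomes II and III of the assembly ASM294v3, in 49 windows of 3000 probe numbers. The spacing of 40 bp per probe number was taken from the array design in the methods and was not tested. With 1 orientation per window, the best position led the next by 0.15 or more in 36 windows, with correlations between signal and gene strand of 0.31 to 0.76. The strand of odd numbers was then chosen for each stretch from the same signal, so the correlations after that choice (median 0.69, lowest 0.29) do not test the placement. The placed genes of 3 deletion mutants had lost their signal in their own mutant. The log2 ratio was -2.62 on both *pab2Δ* arrays over *pab2*, -4.31 in *rmn1Δ* over *rmn1* and -2.10 in *mmi1Δ mei4-P572* over *mmi1*, and at lowest -0.74 over any of these genes on the other arrays.

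The members were selected on their *rrp6Δ* values, which are given here as a description. The median R was 0.89 (1.85-fold), against -0.06 over all 2540 units. Only 3 members had an R of 2 or more, 21 lay between 1 and 2, and 55 were under 1. All 79 were above 0 on both *rrp6Δ* arrays, and 42 reached 0.7 on both. On the second array the median of the members was 1.06, and on the first it was 0.79. The second array gave the higher value for 60 members, with a median difference of 0.29, while over all units that difference was near 0. For 53 members the lower of the 2 *rrp6Δ* arrays still lay above each of the other 14 arrays, as it did for 195 of all 2540 units, and 6 of these 14 arrays belong to the rule.

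**Figure D1:**
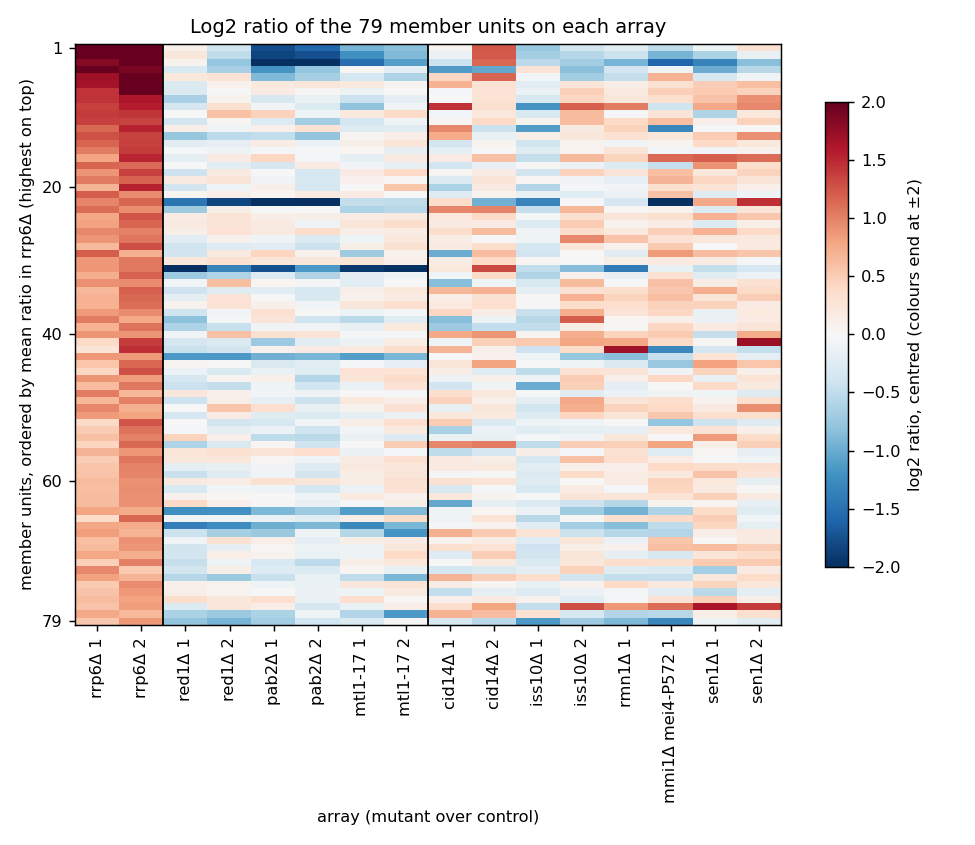
Log2 ratio of mutant over control for the 79 members (one line each, ordered by R in *rrp6Δ* with the highest on top) on each of the 16 arrays, with red for higher and blue for lower. Black lines part the *rrp6Δ* arrays, the 6 other arrays of the rule and the 8 arrays it did not use. Both *rrp6Δ* columns are red throughout, and the second array is the higher for 60 members (colours end at 2 on either side of 0).

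The strongest members lay near the 2 ends of chromosome II. Unit sp40c_736-750, 8 probes long, had log2 ratios of 2.23 and 4.15 on the *rrp6Δ* arrays, and its R of 3.19 was a 9.1-fold difference. Unit sp40c_113053-113083 gave 2.23 and 4.12, and sp40c_756-766 gave 1.82 and 3.86. All probes of these 3 units were at 0.7 or more. Their values went below 0 in *pab2Δ* and *mtl1-17*, with -1.77 and -1.58 for sp40c_736-750 in *pab2Δ* and -0.93 and -0.84 in *mtl1-17*. Among the members, they had the largest gap between the *rrp6Δ* arrays.

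The next 4 members were closer between the arrays. Unit sp40c_107304-107314 had 2.06 and 1.90 in *rrp6Δ*, and sp40c_1003-1015, also near an end of chromosome II, had 1.69 and 2.11. A pair of long units on different chromosomes followed. Unit sp40c_90449-90551, on chromosome II with 52 probes over about 4.16 kb, had 1.66 and 2.08, and sp40c_134983-135087, on chromosome III with 53 probes over about 4.24 kb, had 1.44 and 2.06. Every probe of the first was at 0.7 or more, with the lowest at 1.05, and 52 of 53 were in the second. Both lay over a protein-coding gene of their own strand, and over the 16 arrays their values differed by a root mean square of 0.23.

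The remaining 5 of the 12 highest had R values from 1.53 for sp40c_128086-128100 to 1.35 for sp40c_5446-5506, with sp40c_49196-49292 at 1.47, sp40c_82117-82139 at 1.41 and sp40c_119260-119280 at 1.36 between them. Not all of them were high along their whole length. In sp40c_5446-5506, 18 of 31 probes were at 0.7 or more and 5 were below 0, so its median probe, 2.19, lay above its mean. In sp40c_49196-49292, 11 of 49 probes were below 0. For sp40c_128086-128100 the mean rested on a minority, since 3 of 8 probes were at 0.7 or more, the highest at 7.16, and the median probe was 0.09. The same held for sp40c_13562-13584, with a highest probe of 6.74 and a median of 0.43, and for sp40c_36855-36867, with 7.32 and 0.57. These 3 were the only members with a probe at 6 or more, and each lay over a protein-coding gene of the other strand only. In 69 members 0.5 or more of the probes were at 0.7 or more, and 71.9% of the 2226 probes in members reached that value.

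The brightest member, sp40c_16150-16186, had a mean control signal of 14.86 (log2), and the longest, sp40c_66820-66980, had 81 probes. The brightest lay near the threshold, with 0.57 and 0.84 on the *rrp6Δ* arrays. The longest had 0.70 and 1.11. Across members the control signal ran between 7.69 and 14.86 with a median of 9.61, against 10.06 over all units.

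The ratio has a mutant and a control channel, and since the rule used their ratio on these arrays, their levels are given as a description only. Each channel was set relative to its mean over units, and the *rrp6Δ* arrays were compared with the other 14. The mutant channel of the members was higher by a median of 0.91, against -0.05 over all units. For the control channel, strain p20 on these arrays, the median difference was 0.00 in members and -0.01 over all units. On both *rrp6Δ* arrays the mutant signal of 34 members exceeded that of every other array, as did that of 115 of all 2540 units. In 6 members the p20 signal was lower than the mean of the other controls by 0.5 or more, and sp40c_736-750, sp40c_113053-113083 and sp40c_756-766 were among these 6.

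**Figure D2:**
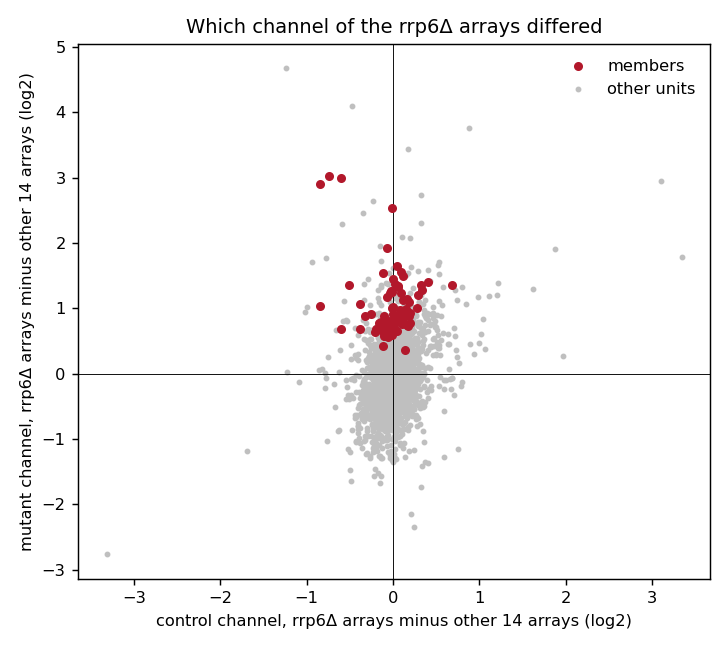
Difference between the 2 *rrp6Δ* arrays and the other 14 in the control channel (horizontal) and in the mutant channel (vertical), both on the log2 scale, with 1 point per unit, red for the 79 members and grey for the others. The members lie above 0 on the vertical axis, with a median of 0.91, and spread to both sides of 0 on the horizontal axis.

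The other 3 mutants of the rule had an upper limit but no lower one. The median R of the members was -0.13 in *red1Δ*, -0.16 in *pab2Δ* and 0.05 in *mtl1-17*, against -0.05, -0.08 and 0.01 over all units. R was below 0 in 53 of the 79 members in *red1Δ*, in 58 in *pab2Δ* and in 35 in *mtl1-17*. Of all 2540 units, 1363, 1482 and 1223 were below 0. The rule took out units at 0.3 or more in these mutants, so the counts in members depend on that choice. In 23 members all 3 values were below 0, which was not counted over all units. Only 8 members were at -1 or lower in at least 1 of these mutants, again without a count over all units. One was sp40c_3709-3741, which gave 0.98 and 1.16 in *rrp6Δ*, but -1.46 and -1.83 in *red1Δ* and -2.59 and -2.34 in *pab2Δ*. Another was sp40c_113007-113017, at -1.94 and -2.17 in *mtl1-17* and 0.86 and 1.06 in *rrp6Δ*. The second *rrp6Δ* array shared its slide with an array of *red1Δ* and one of *pab2Δ*. Within that slide the medians of the members were 1.06 in *rrp6Δ*, 0.01 in *red1Δ* and -0.22 in *pab2Δ*. The rule used these arrays to choose the members, so an effect of the slide was not tested.

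The thresholds cut through a continuous range. Just inside the limit of *rrp6Δ* were sp40c_69178-69188 and sp40c_141745-141755, at 0.702 and 0.707, and just outside were sp40c_142752-142890 and sp40c_46652-46840, which both round to 0.70. For *red1Δ* the last members were sp40c_82117-82139 (0.293) and sp40c_1421-1433 (0.276), and the first units beyond the limit were sp40c_112618-112684 (0.307) and sp40c_129369-129409 (0.316). For *pab2Δ* they were sp40c_14522-14618 (0.296) and sp40c_119314-119334 (0.287), and beyond it sp40c_5745-5801 (0.302) and sp40c_127632-127710 (0.311). For *mtl1-17* the members sp40c_96314-96326 and sp40c_128976-129012 lay at about 0.30, and beyond the limit were sp40c_90555-90567, with an R of 2.20 in *rrp6Δ*, and sp40c_144818-144936 (0.315). Unit sp40c_90555-90567 begins next to the end of member sp40c_90449-90551.

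In length and in lying over genes the members were like all units, with a median of 19 probes against 20. The strand used here had been chosen for each stretch from the same signal. Placed on ASM294v3, 62 of 79 had a protein-coding gene of the same strand along 0.5 or more of their length, as did 1998 of all 2540 units. In 7 only the other strand had one, in 4 neither strand did, and for 6 the strand could not be settled. Chromosome II held 55 members and chromosome III 24, which were 2.79% and 4.23% of their units. Of the 23 units within 40 kb of an end of chromosome II, 9 were members (39.1%), against 66 of 2452 units (2.69%) outside the chromosome ends and the longest gene-free stretches. Near the start of chromosome III, 1 of 17 units was a member (5.88%). The longest stretches without a protein-coding gene, 51.5 kb on chromosome II and 78.2 kb on chromosome III, held 48 units. A further 3 members lay there (6.25%). Such stretches hold the centromeres, and chromosome ends and centromeres carry repeated sequence packed as heterochromatin in this yeast.

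Some members in these regions had like values over the arrays, as had some members elsewhere. Of the 13 members outside the rest of the genome, 9 fell into 3 groups when those of one region were joined wherever their values over the 16 arrays differed by a root mean square under 0.4, a limit picked after the values were seen. Group A was sp40c_736-750, sp40c_756-766 and sp40c_113053-113083, at opposite ends of chromosome II, with differences of 0.25 to 0.62. Group B was sp40c_633-669, sp40c_113152-113186 and sp40c_113330-113366, at the same ends, with differences of 0.09 to 0.11. Group C was sp40c_41421-41433, sp40c_141745-141755 and sp40c_142083-142093, in the gene-free stretches of both chromosomes, with 0.08 to 0.13. The median difference over all 3081 pairs of members was 0.52, and 171 pairs were under 0.25. Like pairs also lay outside these regions and were not grouped, such as sp40c_70823-70977 and sp40c_126977-127053 (0.10) on different chromosomes. The brightest member, sp40c_16150-16186, had such a counterpart in sp40c_120684-120722 (0.09), which at an R of 0.57 was no member. Probes of near-identical copies can share signal. Probe sequences were not used here, so whether the units of a group were measured separately was not tested.

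The groups behaved differently over the mutants. Group A was high in *rrp6Δ* and on the second *cid14Δ* array (1.15 to 1.24) but not on the first (-0.43 to 0.05). Group B had 0.78 to 0.86 on the first *rrp6Δ* array, and its R values in *red1Δ*, *pab2Δ* and *mtl1-17* were between -1.31 and -0.81. Group C was at 0.66 to 0.84 in *rrp6Δ* and at 0.49 to 0.71 on the *cid14Δ* arrays.

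**Figure D3:**
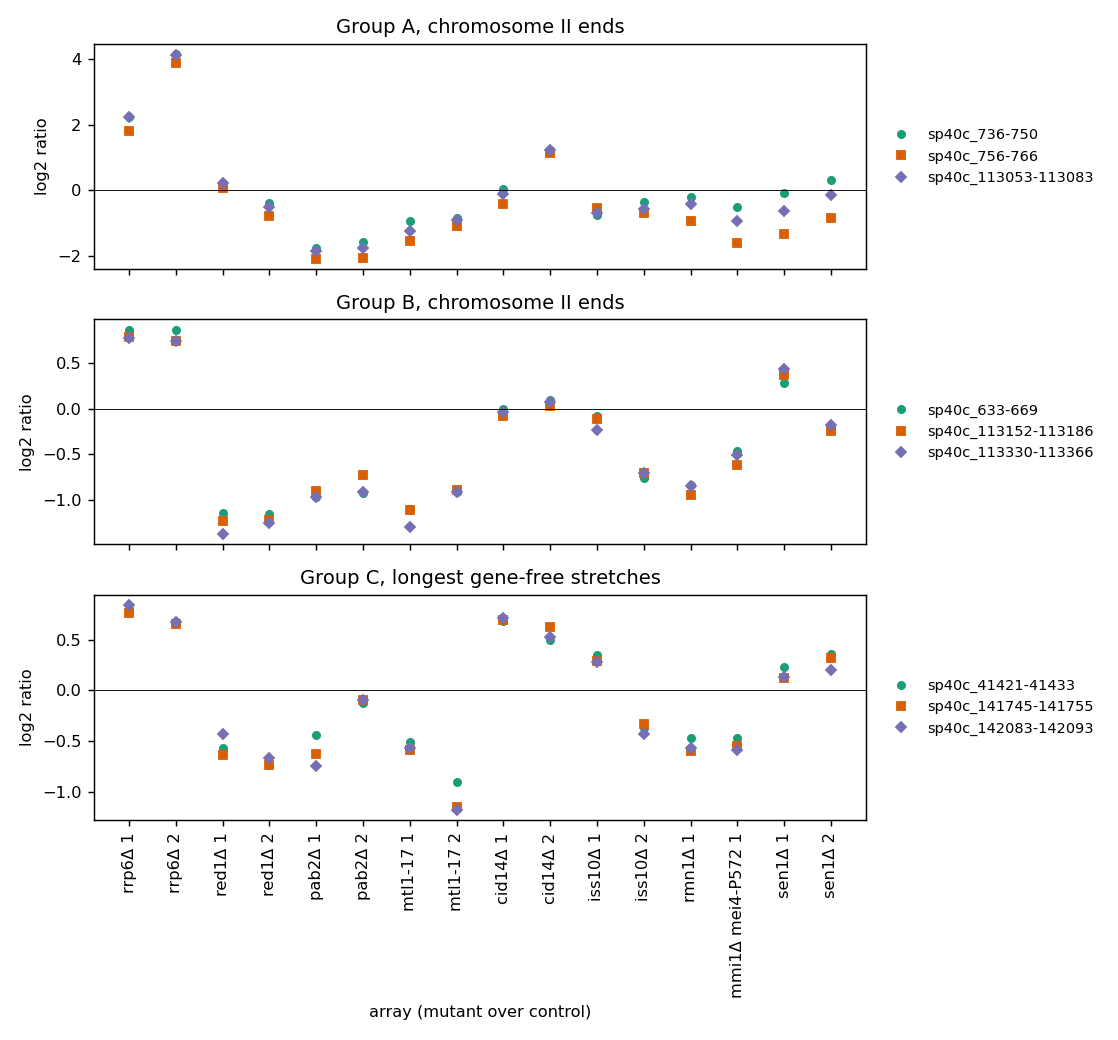
Log2 ratio of mutant over control on each of the 16 arrays for 3 groups of like members, 1 panel per group and 1 symbol per unit. The symbols of groups B and C lie close together on most arrays, and those of group A run between 1.82 and 4.15 on the *rrp6Δ* arrays.

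Other members were direct neighbours. The longest row was on chromosome III, where sp40c_127303-127345, sp40c_127351-127483 and sp40c_127513-127637 followed each other on one strand over 13.4 kb with R values of 0.90, 0.90 and 1.02 in *rrp6Δ*. The next 2 rows by length were at the ends of chromosome II, over 7.2 kb and 5.36 kb, and held group A and 2 units of group B. On chromosome II, sp40c_13738-13750, sp40c_13754-13800 and sp40c_13808-13832 stood in a row over 3.8 kb, at 0.85, 1.11 and 0.96. A dip in the control signal ends a unit, so neighbouring units can be pieces of one transcript, and the 79 need not be separate transcripts.

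By length, members made up 3.23% of units with 6 to 14 probes, 2.15% of those with 15 to 29, 3.31% of those with 30 to 59 and 10.1% of those with 60 or more (11 of 109). The 11 long members had R values from 0.75 to 1.02.

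As a median over members, the ratio was of similar height from end to end, while single members were uneven. For the 49 members with at least 15 probes and a settled strand, each cut into 5 equal parts from 5′ to 3′, the median log2 ratio in *rrp6Δ* was 0.76, 0.91, 0.97, 0.90 and 0.98. In the 1570 other units of that length it ran between -0.13 and -0.01. The 3′ part was above the 5′ part on both arrays in 24 members and below it on both in 16. In the other 9 the arrays differed in sign. The highest part was the 3′ one in 19 members and the 5′ one in 6. In 10 members every part reached 0.7, and 4 had a part below 0.

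**Figure D4:**
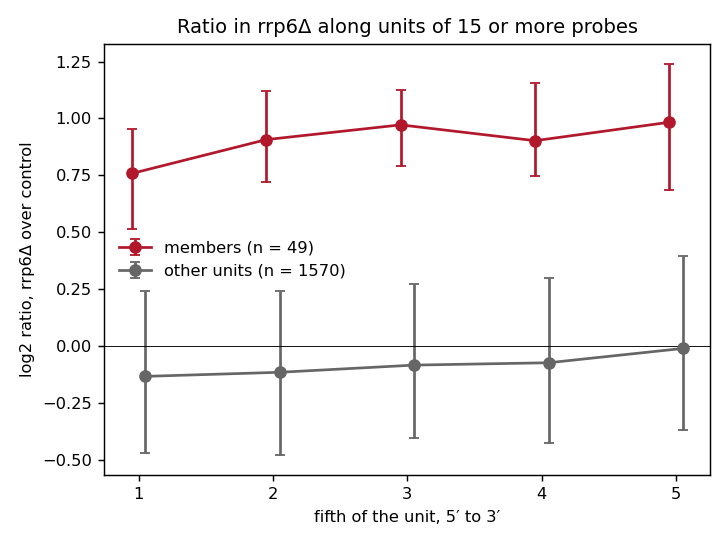
Median log2 ratio of *rrp6Δ* over control (bars, interquartile range over units) in 5 equal parts from 5′ to 3′, for 49 members in red and 1570 other units in grey. The members stay between 0.76 and 0.98 in all parts, and the other units stay between -0.13 and -0.01.

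The antisense strand of the members was close to that of all units. Over the 79 members the median antisense log2 ratio in *rrp6Δ* was 0.21, and over all units 0.25. It reached 0.7 in 22 members, and in 30.2% of all units. The flanks, up to 10 probes of each strand beyond an end where no other unit lay, were higher on the sense strand. Downstream sense flanks had a median of 1.06 in 40 members, against 0.58 in all units with such a flank, and upstream sense flanks had 0.75 in 48 members, against 0.42. In *rrp6Δ*, antisense flanks had medians close to those of all units, with 0.64 against 0.62 downstream and 0.69 against 0.66 upstream. In *red1Δ* and *pab2Δ* the sense flanks of the members had medians between -0.23 and -0.05, and in *mtl1-17* -0.09 upstream and 0.19 downstream. The upstream antisense flanks of the members had medians of 0.06 in *red1Δ*, -0.07 in *pab2Δ* and -0.13 in *mtl1-17*, against 0.41, 0.30 and 0.31 over all units. These are arrays of the rule, so no test is given.

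The rule did not use *cid14Δ*, *iss10Δ*, *sen1Δ*, *rmn1Δ* and *mmi1Δ mei4-P572*, and there each unit was tested with limma over all 2540 units, at a Benjamini-Hochberg adjusted p under 0.05. The 16 arrays shared one estimate of the spread. This fit had no term for the slide and treats the arrays as independent. However, 12 of the arrays shared a slide with another array, and the consensus correlation within slides was 0.51.

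In *sen1Δ*, 13 of the 79 members rose (16.5%) and 1 fell (1.27%), where 6.65% of all units rose and 5.35% fell. The median log2 ratio of the members was 0.21, against -0.01 over all units. Of the 79 members 59 were above 0, as were 48.9% of all units. Among the 214 other units high in *rrp6Δ*, 35 rose (16.4%) and 15 fell, with a median of 0.00. Where the median of all probes of an array was set to 0, all units in *sen1Δ* moved by -0.27, and 2 members rose and 4 fell. The direction in *sen1Δ* is therefore relative to the other units. Each *sen1Δ* array was alone on its slide, so slide and mutant cannot be told apart there. With only the second array, 1 member rose and none fell, and with only the first 7 rose and none fell.

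The largest rise in *sen1Δ* was that of the brightest member, sp40c_16150-16186, with 1.63 and 1.39 (mean 1.51, SE 0.31, limma adjusted p = 0.0121). Its counterpart, sp40c_120684-120722, had 1.73 and 1.53. Unit sp40c_14965-14999, whose control signal was also high (13.55), had 1.19 and 1.11 (mean 1.15, SE 0.25, limma adjusted p = 0.0142). Both were above 0 in *rmn1Δ* and *mmi1Δ mei4-P572* as well, at 0.86 and 1.12 for the first and 0.45 and 1.13 for the second, without passing the test. They differed between the *iss10Δ* arrays, at -0.50 and 1.30 for the first and -0.47 and 0.65 for the second.

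Unit sp40c_3709-3741, low in *red1Δ* and *pab2Δ*, rose in *sen1Δ* with 0.75 and 1.46 (mean 1.11, SE 0.31, limma adjusted p = 0.0391). Below it followed sp40c_128086-128100 with 0.57 and 0.91, sp40c_36855-36867 with 0.50 and 0.92, and sp40c_98762-98828 with 0.81 and 0.56. The means of the other 7 that rose were between 0.54 and 0.63, among them sp40c_90449-90551 with 0.49 and 0.60 and sp40c_127513-127637 with 0.70 and 0.54. The member that fell was sp40c_107304-107314, with -1.0 and -0.56 (mean -0.78, SE 0.22, limma adjusted p = 0.039).

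In *cid14Δ*, 9 members rose (11.4%) and 4 fell (5.06%), where 7.87% of all units rose and 6.69% fell. The median was 0.14, against -0.01 over all units. Of the 214 other units high in *rrp6Δ*, 51 rose (23.8%) and 5 fell, with a median of 0.27. The 2 members with the largest rise were sp40c_68417-68471, with 0.96 and 1.04 (mean 1.00, SE 0.24, limma adjusted p = 0.0158), and sp40c_137978-138084, with 0.98 and 1.00 (mean 0.99, SE 0.24, limma adjusted p = 0.0185). Their arrays nearly coincided. Then came sp40c_119314-119334 with 0.75 and 0.88, sp40c_1003-1015 with 0.42 and 1.17, sp40c_31744-31862 with 0.66 and 0.69, and sp40c_141745-141755 of group C. Its counterpart sp40c_41421-41433 rose too, as did sp40c_98762-98828 and sp40c_22479-22497.

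The members that fell in *cid14Δ* were sp40c_107304-107314 with -1.13 and -1.03 (mean -1.08, SE 0.22, limma adjusted p = 0.00741), sp40c_44002-44048 with -0.73 and -0.49, sp40c_101001-101017 with -1.03 and -0.18, and sp40c_14522-14618 with -0.51 and -0.34. Unit sp40c_107304-107314 thus had one of the highest ratios in *rrp6Δ* and fell in both *cid14Δ* and *sen1Δ*. Units sp40c_22479-22497, sp40c_31744-31862 and sp40c_98762-98828 rose in both. How many of all units were called in both was not counted, so whether members overlapped more often was not tested. In the difference *cid14Δ* minus *iss10Δ*, these 3 units had limma adjusted p of 0.346, 0.162 and 0.201. In *sen1Δ* minus *iss10Δ* they had 0.252, 0.213 and 0.084. For sp40c_107304-107314 the limma adjusted p of these differences was 0.195 and 0.374. With only the first *cid14Δ* array, 1 member rose and 1 fell, and with only the second 2 rose and none fell. The 3 members of group A had their high *cid14Δ* value on the second array only, and none of them passed the test.

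**Figure D5:**
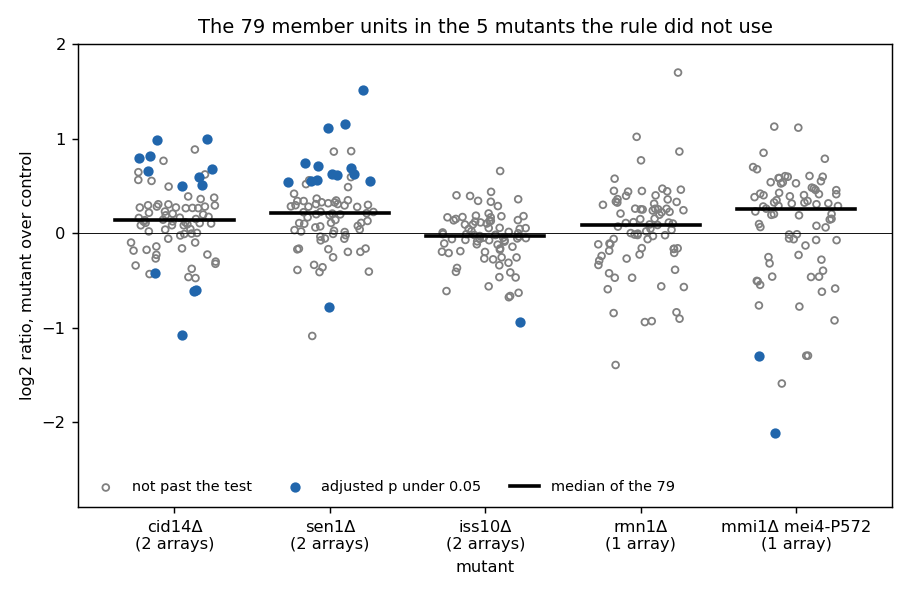
Log2 ratio of mutant over control (limma estimate) of the 79 members in each of the 5 mutants that the rule did not use, with 1 point per member, filled where the adjusted p was under 0.05, and a bar at the median. Filled points above 0 stand in *sen1Δ* (13) and *cid14Δ* (9), and the medians run from -0.03 in *iss10Δ* to 0.26 in *mmi1Δ mei4-P572*.

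In *iss10Δ* no member rose and 1 fell, where 1.22% of all units rose and 0.157% fell. At an unadjusted limma p under 0.05, 1 was higher and 5 were lower, where 5.31% and 3.03% of all units were. The median was -0.03 in members and over all units. The member that fell was sp40c_69178-69188, with -1.14 and -0.73 (mean -0.94, SE 0.15, limma adjusted p = 0.00563). The 2 *iss10Δ* arrays differed over the members, with medians of -0.25 on the first and 0.18 on the second. Of the 214 other units high in *rrp6Δ*, 24 rose (11.2%). Without the first *iss10Δ* array, 2 members rose and 3 fell in *iss10Δ*, and without the second none rose and 2 fell.

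In *rmn1Δ*, on 1 array, no member passed the test in either direction, where 0.512% of all units rose and 0.0394% fell. At an unadjusted limma p under 0.05, 2 were higher and 7 were lower, where 4.92% and 2.76% of all units were. The highest value was that of sp40c_74784-74794, at 1.70, and the lowest that of sp40c_113007-113017, at -1.40. The median was 0.09, against -0.01 over all units. Without either *iss10Δ* array, 1 member rose and 3 fell in *rmn1Δ*, since all mutants shared the estimate of the spread.

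In *mmi1Δ mei4-P572*, also on 1 array, 2 members fell and none rose, where 3.03% of all units fell and 1.81% rose. At an unadjusted limma p under 0.05, 17 were higher and 10 were lower, where about 11% and 12% of all units were. The members that fell were sp40c_3709-3741 at -2.11 (SE 0.44, limma adjusted p = 0.0173) and sp40c_69178-69188 at -1.30 (SE 0.21, limma adjusted p = 0.00401). The median was 0.26, against 0.00 over all units. Among the 214 other units high in *rrp6Δ*, 34 rose (15.9%) and 5 fell. Without either *iss10Δ* array, 5 members rose and 5 fell.

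A difference between mutants removes a dye effect that their arrays share. The differences from *sen1Δ* also hold those between the control strains p344 and p918 and between slides, which cannot be told apart from the mutants. In *cid14Δ* minus *iss10Δ*, 2 members were higher and none lower, where 1.61% of all units were higher and 1.5% lower. At an unadjusted limma p under 0.05, 14 were higher and 2 lower, where 9.17% and 9.25% of all units were. For *sen1Δ* minus *iss10Δ* the counts were 1 and 0, with 1.89% and 2.68% over all units, and 16 and 0 at the unadjusted p, with about 11% each over all units. In *cid14Δ* minus *sen1Δ*, 1 member was higher and 3 were lower, with 3.7% and 4.17% over all units. At an unadjusted limma p under 0.05, 6 were higher and 10 lower there, with 11.3% and 12.1% over all units. Of the 9 members that rose in *cid14Δ*, sp40c_1003-1015 also passed the test against *iss10Δ*, and of the 13 that rose in *sen1Δ*, sp40c_3709-3741 did.

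On the antisense strand of the 79 members, 22 rose and 3 fell in *sen1Δ*, where 23.1% of all units rose and 2.56% fell. In *cid14Δ*, 16 rose and 14 fell, where 14.6% rose and 18.5% fell. The highest values in *cid14Δ* were 0.88 over sp40c_13808-13832 and 0.83 over sp40c_113053-113083, and the lowest were -0.76 over sp40c_49761-49817 and -0.74 over sp40c_1003-1015, whose sense strand rose. In *mmi1Δ mei4-P572*, 3 rose (3.9% of all units) and 3 fell (1.93%), with the lowest value, -1.57, opposite sp40c_128976-129012. In *iss10Δ* 1 rose (0.551%) and none fell (0.0787%), and in *rmn1Δ* none passed in either direction (0.512% and 0.0787%). Over the 5 mutants, 62 antisense calls went to 40 without the second *cid14Δ* array.

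Upstream sense flanks were measured for 48 members. In *sen1Δ*, 15 rose and 2 fell, where 27.7% of all such flanks rose and 3.06% fell, and in *cid14Δ*, 5 rose and 3 fell, where 15.3% rose and 9.73% fell. In *rmn1Δ* 1 rose (3.73%) and 1 fell (0.428%), in *mmi1Δ mei4-P572* 2 rose (3.67%) and none fell (1.96%), and in *iss10Δ* none rose (1.96%) or fell (0.122%). Downstream sense flanks were measured for 40 members. In *sen1Δ*, 13 rose and none fell, where 23.0% rose and 1.84% fell, and in *cid14Δ*, 11 rose and 5 fell, where 22.3% rose and 8.77% fell. In *mmi1Δ mei4-P572* 2 rose (5.4%) and none fell (0.858%), in *iss10Δ* none rose (1.16%) and 1 fell (0.245%), and in *rmn1Δ* none rose (0.981%) and 1 fell (0.123%). Over the 5 mutants, 29 upstream calls went to 14 and 13 without the first and the second *sen1Δ* array, and 33 downstream calls went to 18 without either.

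Antisense flanks were measured upstream of 41 members and downstream of 36. Upstream, 3 rose (13.2% of all such flanks) and 11 fell (15.8%) in *cid14Δ*, and 9 rose (20.8%) and 3 fell (5.38%) in *sen1Δ*. In *rmn1Δ* 2 rose (11.8%) and 1 fell (0.475%), in *mmi1Δ mei4-P572* 2 rose (4.43%) and 3 fell (4.59%), and in *iss10Δ* none rose (4.43%) or fell (0.633%). Downstream, 5 rose (12.6%) and 7 fell (16.3%) in *cid14Δ*, and 7 rose (17.6%) and 3 fell (5.07%) in *sen1Δ*. In *mmi1Δ mei4-P572* none rose (4.56%) and 2 fell (4.26%), while none passed in *iss10Δ* (3.34% and 0.405%) or *rmn1Δ* (5.57% and 0.203%). Over the 5 mutants, 34 upstream antisense calls went to 19 and 18 without the first and the second *sen1Δ* array. The 24 downstream antisense calls went to 15 without the second *sen1Δ* array and to 15 without the first *cid14Δ* array.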

How the data were processed

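The arrays were custom Agilent tiling arrays. Per the labels and file headers, the authors extracted spot intensities with Agilent Feature Extraction (10.7.1.1 on 1 array, 10.7.3.1 on 15), which subtracted the background and normalized the dyes within each array. The deposited processed intensity values of both channels were used. A deposited series table of log2 ratios, in which 49.44% to 87.83% of an array's values are 0, served as an alternative, as did the raw intensities (normexp, offset 50, and loess).

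The members and lists were chosen with earlier results of these data known. Log2 ratios were averaged over the probes of a unit and centred on the mean of all units of each array. Membership followed the rule with all probes. The tests left out spots that the deposited flags mark as outliers. Units were tested with limma 3.58.1 (R 4.3.3) in 1 fit of 16 arrays and 9 mutants, two-sided against 0, with 7 residual and 4.96 prior degrees of freedom. The antisense strand and the flanks (at least 3 probes) had a fit for each class. Probe numbers were placed by matching the control signal to gene strands of ASM294v3. The strand of odd numbers changed along the array and was settled for each stretch. Named were the 12 members with the highest R, those next to each threshold, up to 6 called per mutant and direction, the longest and brightest, and the 3 longest groups of neighbours. Like members, members with few high probes and further values were chosen after their values were seen. Python 3.11.15, numpy 2.4.6, pandas 2.3.3 and matplotlib 3.10.9 were used. The number of arrays limits the precision.

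The fit was tested on simulated data of 2540 units with 200 changed. A change of 1 on the log2 scale was recovered in 89% in *cid14Δ* (2 arrays) and 65% in *rmn1Δ* (1 array), and a change of 2 in 99.5% and 98.5%. False calls were 5 and 8 at a change of 1, and 13 and 11 at a change of 2. The noise was drawn independently for each array, without the correlation within slides, and changes under 1 were not simulated. The alternatives were other centring, normalization and summaries, only probes well above background, the series table, slide as a random block or fixed term, a replicate block, a log2 ratio of at least 1, another unit threshold and each replicate left out. Keeping or leaving out outlier spots, and the blocks for the antisense strand and flanks, were added after the data were seen.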

Additional observations from a re-analysis of the deposited data

Results flagged for a closer look

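A few members differed between 2 mutants by the limma test of the difference itself, with Benjamini-Hochberg adjustment over all 2540 units. Against *iss10Δ*, *cid14Δ* was higher by 1.16 for sp40c_1003-1015 (0.42 and 1.17 in *cid14Δ*, -0.05 and -0.69 in *iss10Δ*, adjusted p = 0.0461) and by 1.44 for sp40c_113007-113017 (0.21 and 1.32 against -0.49 and -0.86, adjusted p = 0.0492). Against *iss10Δ*, *sen1Δ* was higher by 1.77 for sp40c_3709-3741 (0.75 and 1.46 against -1.32 and -0.01, adjusted p = 0.041). The *iss10Δ* arrays of that unit were 1.31 apart.

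In *cid14Δ* minus *sen1Δ*, the difference was 0.99 for sp40c_1003-1015 (adjusted p = 0.0456), -0.90 for sp40c_23816-23852 (-0.38 and -0.16 in *cid14Δ*, 0.90 and 0.36 in *sen1Δ*, adjusted p = 0.0257), -0.76 for sp40c_131606-131670 (-0.14 on both *cid14Δ* arrays, 0.85 and 0.37 in *sen1Δ*, adjusted p = 0.0431) and -0.82 for sp40c_44002-44048 (-0.73 and -0.49 in *cid14Δ*, 0.16 and 0.26 in *sen1Δ*, adjusted p = 0.047). All 7 calls were lost without at least 1 of the replicates. Those with *sen1Δ* also compare different control strains and slides, which cannot be told apart from the mutants.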

How the results depend on the processing

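The number of members, 79, went to 34 without centring and 36 with the median of all probes of an array set to 0 (30 and 35 of them among the 79), and to between 58 and 125 without 1 replicate, the highest without *rrp6Δ* replicate 1 and the lowest without *rrp6Δ* replicate 2. The other settings gave 71 to 85 members but not always the same ones. Of the 79, all were among the 80 without outlier spots and 78 among the 81 with only probes well above background, but 59 among the 85 with the median over probes and 55 each among the 80 of the series table and the 71 with normexp and loess. With the unit threshold 1 log2 unit higher or lower, which also changes the bounds of units, 43 and 44 of them overlapped one of the 83 and 76 members. Members called, higher and lower together, were 13 in *cid14Δ*, 14 in *sen1Δ*, 1 in *iss10Δ*, 0 in *rmn1Δ* and 2 in *mmi1Δ mei4-P572*. The series table gave 8 in *cid14Δ* and 7 in *sen1Δ*. The median of all probes at 0 gave 6 in *sen1Δ*. A log2 ratio of at least 1 left 1 in *cid14Δ*, 3 in *sen1Δ* and 0 in *iss10Δ*. The median over probes gave 1 in *rmn1Δ*, and no centring 4 in *mmi1Δ mei4-P572*. Without 1 replicate the counts ran from 2 to 19 in *cid14Δ*, 1 to 18 in *sen1Δ*, 1 to 5 in *iss10Δ*, 0 to 4 in *rmn1Δ* and 2 to 10 in *mmi1Δ mei4-P572*, the highest each without an *iss10Δ* replicate. *cid14Δ* minus *iss10Δ* gave 2 calls, 0 without centring or with normexp and loess, 4 with slide as a random block and 3 with slide as a fixed term, and 0 to 9 without 1 replicate. *sen1Δ* minus *iss10Δ* gave 1, and 0 without centring or with normexp and loess, and 0 to 9 without 1 replicate. *cid14Δ* minus *sen1Δ* gave 4, and 1 without centring or with normexp and loess, and 0 to 8 without 1 replicate. Members called over the 5 mutants ran, without 1 replicate, from 40 to 85 on the antisense strand, 13 to 43 for upstream sense, 18 to 40 for upstream antisense, 18 to 41 for downstream sense and 15 to 26 for downstream antisense flanks. Of 37 member calls, 3 held without each replicate in turn and 9 held in all the other settings apart from a log2 ratio of at least 1, and none changed sign. The cause of these changes was not tested.

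The deviations of same-numbered arrays had correlations from -0.57 to 0.69 over 21 pairs of mutants, with 10 above 0.1, and since not every pair was above 0.1 the numbers were not taken as pairs. With the replicate block the calls were 15 in *cid14Δ*, 16 in *sen1Δ*, 1 in *iss10Δ*, 1 in *rmn1Δ*, 4 in *mmi1Δ mei4-P572* and 2 in *sen1Δ* minus *iss10Δ*. Slide as a fixed term allowed no estimate of the differences from *sen1Δ*. For *rmn1Δ* and *mmi1Δ mei4-P572*, leaving out their single array gives no value.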
